A study of Rattus norvegicus with 47 samples.

Results

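The genes described here belong to the FGF, IGF and PDGF growth factor systems: the ligands Fgf2, Igf1 and Pdgfb and the receptors Fgfr1, Fgfr2, Igf1r and Igf2r. They were found by gene symbol in the annotation of the array, which gave 19 probe sets for the 7 genes among 8799 probe sets on the array. Of these, 18 were bright enough to be tested, among 7503 tested in all. A probe set is a group of short probes for one transcript, and its signal is a linear intensity that cannot be set against the signal of another probe set.

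The study hybridised total RNA of injured rat brain to 47 arrays, 1 sample each, and the labels sort them by side of the injury, region and hours after it. Cortex at 4 h was represented by 7 ipsilateral and 8 contralateral arrays, cortex at 24 h by 8 and 8, and hippocampus (read from the abbreviation HC in the labels) at 4 h by 7 and 9. The same treatment entry stands on every array, and the labels name no strain, age or kind of injury and do not set sham-operated apart from injured animals. The labels do not say that the arrays of a group came from separate animals, so the p-values measure the spread between these arrays, which may be technical.

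FGF2 signals through FGF receptors, IGF1 through the IGF1 receptor and PDGF-B through PDGF receptors, and all of these receptors are tyrosine kinases that feed the MAP kinase, PI3 kinase and STAT relays. The product of Igf2r has no kinase: it carries mannose-6-phosphate-tagged enzymes to lysosomes and removes IGF2 from the cell surface. In brain, FGF2 and FGFR2 are known from astrocytes, FGFR1 from neurons and progenitor cells, IGF1 as a survival factor for neurons and PDGF-B as a signal that holds pericytes on capillaries.

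In cortex no tested probe set of these genes differed between the injured and the opposite side at either time. Fgfr2 rose in cortex between 4 and 24 h on both sides, by 1.49-fold to 2.65-fold over 3 of its probe sets. Fgfr1 and Fgfr2 were higher in hippocampus than in cortex at 4 h, on both sides. In hippocampus at 4 h 1 probe set each of Igf2r and Pdgfb was higher, and 1 of Igf1r was lower, on the injured side, and all 3 calls ended when the dimmest signals of the arrays, which also differed between these sides, entered as a covariate.

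The regions before the annotated start sites of 4 of the genes are shown as 2 pairs that were called together: Fgfr2 and Fgf2 higher in contralateral hippocampus than in contralateral cortex, and Igf2r and 1 of the 2 Pdgfb probe sets higher in ipsilateral than in contralateral hippocampus, the latter calls ending under the covariate described with them. Each is the 250 bases before the start site, 5′ to 3′ on the gene's strand, from RefSeq on the rat build GRCr8. They lie at chr1:194280915-194281164 on the minus strand (Fgfr2), chr2:122164204-122164453 on the plus strand (Fgf2), chr1:50526628-50526877 on the plus strand (Igf2r) and chr7:113438344-113438593 on the minus strand (Pdgfb). Capitals mark the GC box, searched as GGGCGG and, for the other strand, CCGCCC.
Fgfr2 promoter: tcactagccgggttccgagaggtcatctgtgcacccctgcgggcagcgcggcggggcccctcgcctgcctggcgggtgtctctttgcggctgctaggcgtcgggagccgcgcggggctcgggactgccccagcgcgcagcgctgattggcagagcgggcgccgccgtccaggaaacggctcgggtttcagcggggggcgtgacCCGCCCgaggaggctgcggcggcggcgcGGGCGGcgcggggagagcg
Fgf2 promoter: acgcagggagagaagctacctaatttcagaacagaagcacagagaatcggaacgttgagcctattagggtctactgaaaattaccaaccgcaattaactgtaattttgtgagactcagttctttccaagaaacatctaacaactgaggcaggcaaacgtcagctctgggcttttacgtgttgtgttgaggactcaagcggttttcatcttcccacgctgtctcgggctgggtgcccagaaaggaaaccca
Igf2r promoter: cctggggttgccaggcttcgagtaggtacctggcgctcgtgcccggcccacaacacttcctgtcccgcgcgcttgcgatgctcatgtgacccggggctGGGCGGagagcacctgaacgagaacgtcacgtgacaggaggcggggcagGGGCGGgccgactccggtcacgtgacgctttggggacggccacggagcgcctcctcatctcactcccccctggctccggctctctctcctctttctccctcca
Pdgfb promoter: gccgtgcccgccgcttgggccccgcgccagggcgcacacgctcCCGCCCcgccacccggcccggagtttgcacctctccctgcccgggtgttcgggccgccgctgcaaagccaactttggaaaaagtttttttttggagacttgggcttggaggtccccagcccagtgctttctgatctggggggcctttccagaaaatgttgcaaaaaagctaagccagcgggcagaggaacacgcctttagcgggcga

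The Fgfr2 stretch held 2 GC boxes, 37 CpG dinucleotides and 76.8% G and C. The Fgf2 stretch held no GC box, 9 CpG dinucleotides and 46.8% G and C. Igf2r had 2 GC boxes, 23 CpG dinucleotides and 68% G and C, and Pdgfb had 1 GC box, 19 CpG dinucleotides and 63.6% G and C. A GC box stood in 30.5% of the 33469 rat promoter stretches of the same length, whose medians were 5 CpG dinucleotides and 51.2% G and C. Fgfr2 and Fgf2 differed in GC box and base composition. Igf2r and Pdgfb both held a GC box and were both above the medians in CpG dinucleotides and in G and C, as Fgfr2 was. So was Igf1r, called lower on 1 probe set between the same hippocampal sides, with 1 GC box, 45 CpG dinucleotides and 79.6% G and C. These features were thus not particular to the pair called higher. The Igf1 stretch held no GC box. Stretches were found for 6 of the 7 genes, and the motif TATAAA (searched on both strands, present in 12.9% of promoters) was in none of the 6. These matches describe letters in a window, not a factor's binding.

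Signals were floored at 185.8, the 25th percentile of all values, log2 was taken, and all 47 arrays entered 1 limma model per probe set. A call means a Benjamini-Hochberg adjusted p under 0.05 over the 7503 probe sets within a comparison, and every adjusted p below is from limma. Differences are of group means on the floored log2 scale, with the standard error (SE) of the model. The regions matched their labels: summed hippocampus markers (7 of 9 measured) ran from 12906 to 24192 in hippocampus and from 4613 to 8338 in cortex. Sample numbers run in blocks by group, so group and order of handling cannot be told apart. Bulk tissue was measured, so a change in the number of cells of a type and a change in RNA per cell cannot be told apart.

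**Figure D1:**
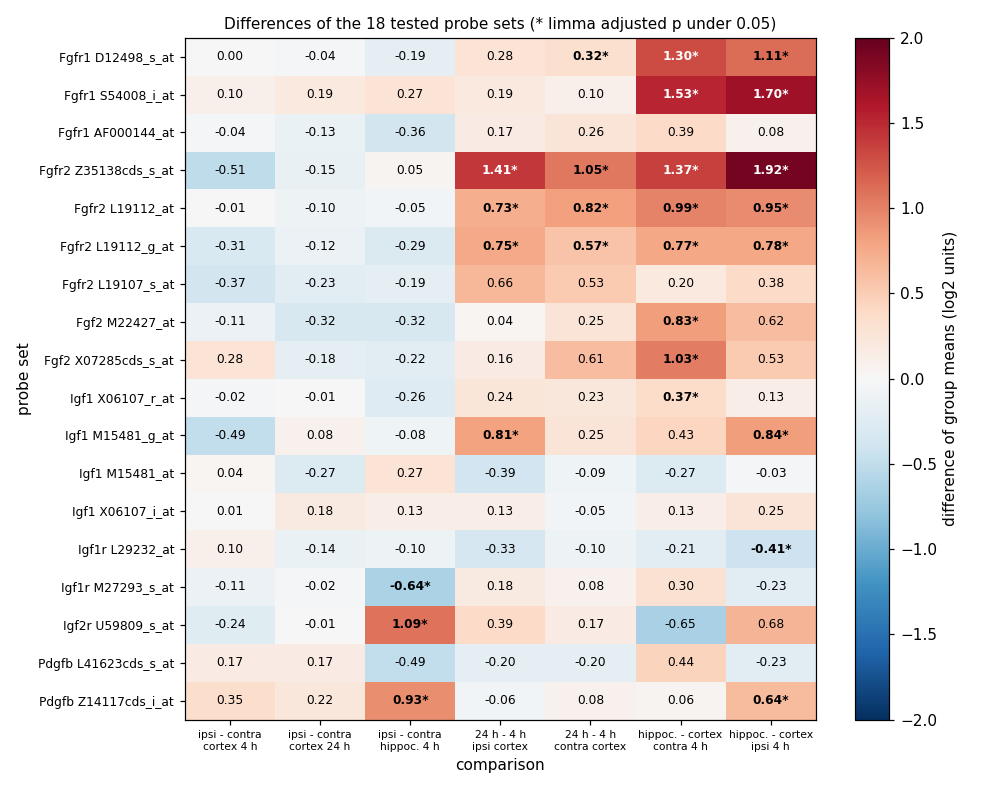
Differences of group means in log2 units (colour and number) for the 18 tested probe sets (rows) in 7 comparisons (columns), with an asterisk where the limma adjusted p was under 0.05. The Fgfr2 rows, except that of L19107_s_at, hold calls in all 4 time and region comparisons. The hippocampal side comparison holds 3 calls, on Igf1r, Igf2r and Pdgfb, and the 2 cortical side comparisons hold none.

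The first question set by the labels is whether the injured side differed from the opposite side. In cortex at 4 h limma called 0 of the 18 probe sets, against a background of 0% of all tested, and 1 member and 558 of all probe sets had an unadjusted p under 0.05. In cortex at 24 h it called 0 of the 18, against a background of 0.107%, with 0 members and 575 of all probe sets at an unadjusted p under 0.05. The largest cortical difference was that of Fgfr2 (Z35138cds_s_at) at 4 h, at -0.51 (SE 0.26, adjusted p = 0.692). Igf1 (M15481_g_at) stood at -0.49 (SE 0.25) and Pdgfb (Z14117cds_i_at) at 0.35 (SE 0.17, adjusted p = 0.666) at the same time. These values were within the spread between arrays. The change of the side difference from 4 to 24 h was called for 0 of the 18 probe sets, against a background of 0%, and 0 members and 421 of all probe sets had an unadjusted p under 0.05.

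The second question is how cortex differed between 4 and 24 h. In ipsilateral cortex 4 of the 18 probe sets were called, all higher at 24 h, which is 22.2% against a background of 19.3%. In contralateral cortex 4 of the 18 were called, all higher at 24 h, which is again 22.2% against a background of 21.5%. Those shares are near the background. The median difference of the 18 was 0.18 on the ipsilateral and 0.24 on the contralateral side, against 0.03 and 0.04 over all tested probe sets. Fgfr2 held 3 of the 4 calls on each side, with Igf1 as the fourth on the ipsilateral side and Fgfr1 on the contralateral side.

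Fgfr2 encodes a receptor for FGF ligands. On its leading probe set Z35138cds_s_at, the tested one with the highest mean, the signal (lowest, median and highest array) was 224, 461 and 1148 in ipsilateral cortex at 4 h. At 24 h the same side stood at 737, 1328 and 2122. The upper arrays at 4 h reached into the range at 24 h, and all 8 arrays at 24 h lay above the median at 4 h. The difference was 1.41 (SE 0.26, 2.65-fold, adjusted p = 0.000121).

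Contralateral cortex held 324, 711 and 1328 at 4 h on the same Fgfr2 probe set. At 24 h it held 865, 1415 and 2177. Here too the ranges overlapped, with all 8 arrays at 24 h above the median at 4 h. The difference was 1.05 (SE 0.26, 2.07-fold, adjusted p = 0.002).

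The Fgfr2 probe set L19112_at gave 463, 571 and 879 in ipsilateral cortex at 4 h, and 844, 1173 and 1307 at 24 h. Contralateral cortex gave 324, 688 and 914 at 4 h, and 880, 1180 and 1356 at 24 h. Of the 15 cortex arrays at 4 h, 12 lay below all 16 arrays at 24 h, so the times barely overlapped. The differences were 0.73 (SE 0.16, 1.66-fold, adjusted p = 0.00081) on the ipsilateral side and 0.82 (SE 0.16, 1.77-fold, adjusted p = 0.000103) on the contralateral side.

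L19112_g_at, a further Fgfr2 probe set, rose by 0.75 (SE 0.15, adjusted p = 0.000365) and 0.57 (SE 0.15, adjusted p = 0.00383) on the same sides. On L19107_s_at, dimmer and above the floor on 37 of 47 arrays, the differences were 0.66 (SE 0.43) and 0.53 (SE 0.41), and neither was called. The side differences of all 4 Fgfr2 probe sets in cortex were between -0.51 and -0.01, none of them called.

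Fgfr1 encodes a second FGF receptor. Its leading probe set D12498_s_at gave 2445, 3080 and 3412 in contralateral cortex at 4 h. At 24 h the same side gave 3243, 3743 and 5010, with the groups overlapping at their edges and all 8 later arrays above the earlier median. The rise was 0.32 (SE 0.11, 1.25-fold, adjusted p = 0.0349) and was lost when any 1 of arrays 11, 15, 43, 44, 47 and 48 was left out (0.26 to 0.31), as well as under quantile normalization (0.22, adjusted p = 0.183). On the ipsilateral side the difference was 0.28 (SE 0.12, adjusted p = 0.0881).

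Igf1 encodes a secreted ligand. On M15481_g_at, ipsilateral cortex at 4 h gave 218, 623 and 923, and at 24 h 793, 956 and 1145. The arrays at 24 h sat close together while those at 4 h spread downward, and the ranges overlapped. The difference was 0.81 (SE 0.25, 1.76-fold, adjusted p = 0.0172). It was not called without array 5 (0.68, adjusted p = 0.0571) or without array 6 (0.59, adjusted p = 0.0833). The other 3 tested Igf1 probe sets stood between -0.39 and 0.24 in the same comparison with no call, so the probe sets of this gene differed in direction.

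Fgf2, the ligand, was not called with time. Its leading probe set M22427_at differed by 0.04 (SE 0.25) on the ipsilateral and 0.25 (SE 0.25) on the contralateral side. The dimmer X07285cds_s_at stood at 0.61 (SE 0.24, adjusted p = 0.0634) on the contralateral side, just short of a call, and under 5 of the alternative settings it was called, at 0.61 to 0.97. Igf2r, Igf1r and Pdgfb were not called in either time comparison, with differences from -0.33 to 0.39 over their 5 probe sets.

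Some cell type markers were called in the same contrast, and their part in the Fgfr2 result was not tested. Of 8 measured astrocyte markers (of 10 listed), 2 were higher and 1 lower at 24 h in ipsilateral cortex, and 1 higher and 2 lower in contralateral cortex. Their summed signal ran from 159478 to 196191 in ipsilateral cortex at 4 h and from 151082 to 163916 at 24 h, and from 153395 to 188207 and from 140882 to 165264 on the contralateral side. That sum mostly follows the brightest markers, and the median difference of the list was -0.05 ipsilaterally and 0.03 contralaterally. Single markers went both ways. The mean log2 signal of Aqp4, the astrocyte water channel, was 10.67 and 10.72 in ipsilateral and contralateral cortex at 4 h, and 12.16 and 11.92 at 24 h. Fabp7, Gja1 and Slc1a2 also had higher means at 24 h on both sides. The brighter Slc1a3, S100b, Glul and Aldoc had lower means at 24 h on both sides. Markers of mural cells and fibroblasts (9 of 10 measured) were higher for 2 of 9 on each side and lower for 0. Their sums ran from 9785 to 13723 and from 9423 to 12086 at 4 h, and from 13681 to 19750 and from 12352 to 18210 at 24 h. These sums too lean on the brightest marker, Col1a1, whose means were 11.63 and 11.52 at 4 h and 12.7 and 12.58 at 24 h. Dcn went from 9.7 to 9.48 ipsilaterally and from 9.31 to 9.83 contralaterally. The median difference of the list was 0.35 ipsilaterally and 0.3 contralaterally. Myh11, of the second list, lay near the floor at 4 h, with means of 8 and 7.89 in ipsilateral and contralateral cortex.

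**Figure D2:**
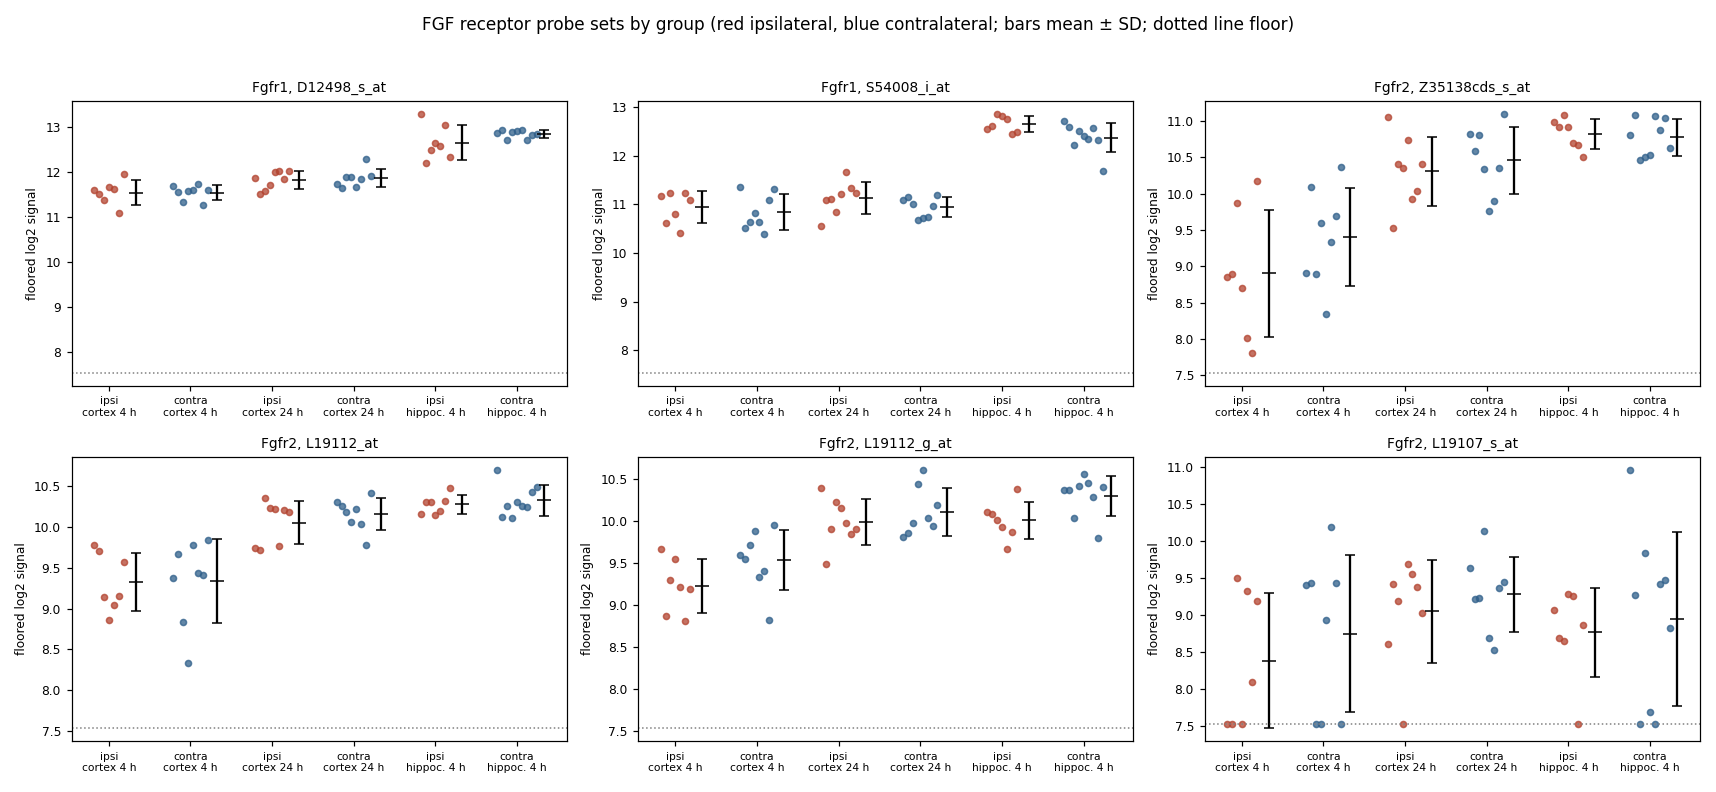
Floored log2 signal of each array (points, red ipsilateral and blue contralateral) by group for 2 Fgfr1 and 4 Fgfr2 probe sets, with mean and SD beside the points and the floor as a dotted line. On S54008_i_at every hippocampal array lies above every cortical one, and the means of all 4 Fgfr2 probe sets are lowest in the 2 groups of cortex at 4 h.

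The third question is how hippocampus differed from cortex at 4 h. On the contralateral side 8 of the 18 probe sets were called, all higher in hippocampus, which is 44.4% against a background of 33.7%. On the ipsilateral side 8 were called, 7 higher and 1 lower, which is 44.4% against a background of 27.5%. The median difference of the 18 was 0.41 and 0.58, against 0.11 and 0.01 over all tested probe sets. These comparisons share the 4 h cortex arrays with the time comparisons, so a low 4 h cortex group enters both.

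Fgfr1 held the sharpest separation. On S54008_i_at the 31 cortex arrays of both times ran from 1331 to 3247 and the 16 hippocampal arrays from 3291 to 7407. All 16 hippocampal arrays lay above all cortex arrays, with no overlap. The difference at 4 h was 1.53 (SE 0.14, 2.89-fold, adjusted p = 1.22e-12) on the contralateral side and 1.70 (SE 0.15, 3.26-fold, adjusted p = 1.59e-12) on the ipsilateral side.

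On the Fgfr1 probe set D12498_s_at ipsilateral hippocampus gave 4749, 6125 and 10018, and contralateral hippocampus 6717, 7461 and 7912. Cortex at 4 h gave 2175, 3124 and 3976 on the ipsilateral side, and the contralateral values are those above. The regions did not overlap at 4 h on either side, and 15 of 16 hippocampal arrays lay above all 31 cortex arrays of both times. The difference was 1.30 (SE 0.11, 2.47-fold, adjusted p = 1.06e-13) contralaterally and 1.11 (SE 0.12, 2.17-fold, adjusted p = 2.68e-10) ipsilaterally. The third Fgfr1 probe set, AF000144_at, was above the floor on 30 of 47 arrays and was not called.

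For Fgfr2, Z35138cds_s_at gave 1450, 1918 and 2166 in ipsilateral hippocampus and 1404, 1779 and 2165 in contralateral hippocampus. All of these lay above all 4 h cortex arrays of the same side, and within the range of cortex at 24 h. The difference from 4 h cortex was 1.92 (SE 0.27, 3.80-fold, adjusted p = 2.5e-07) ipsilaterally and 1.37 (SE 0.25, 2.59-fold, adjusted p = 2.21e-05) contralaterally. L19112_at rose by 0.95 (SE 0.17) and 0.99 (SE 0.15) and L19112_g_at by 0.78 (SE 0.16) and 0.77 (SE 0.15) on the same sides, all called. L19107_s_at stood at 0.38 and 0.20 and was not called.

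The ligand Fgf2 was higher in contralateral hippocampus on both of its probe sets. M22427_at gave 353, 609 and 1261 in contralateral cortex and 869, 1193 and 1479 in contralateral hippocampus. The ranges overlapped, with all 9 hippocampal arrays above the cortical median. The difference was 0.83 (SE 0.24, 1.78-fold, adjusted p = 0.00538), and X07285cds_s_at rose by 1.03 (SE 0.24, 2.04-fold, adjusted p = 0.000592). On the ipsilateral side they stood at 0.62 (SE 0.26, adjusted p = 0.0714) and 0.53, neither called.

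Igf1 was called on 1 probe set a side, and not on the same one. X06107_r_at gave 607, 925 and 989 in contralateral cortex and 910, 1147 and 1379 in contralateral hippocampus, overlapping. It rose by 0.37 (SE 0.11, 1.3-fold, adjusted p = 0.00754), and stood at 0.16 (adjusted p = 0.243) under quantile normalization. M15481_g_at was higher in ipsilateral hippocampus, at 884, 961 and 1296, than in the 4 h cortex values above, by 0.84 (SE 0.26, adjusted p = 0.0134). Without array 6 of ipsilateral cortex it stood at 0.61 (adjusted p = 0.0649). With the 10th percentile of each array's signal as a covariate it stood at 0.66 (adjusted p = 0.0755).

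Igf1r, the kinase receptor for IGF1, went the other way on its leading probe set. L29232_at gave 1240, 1497 and 1848 in ipsilateral cortex at 4 h and 1016, 1108 and 1380 in ipsilateral hippocampus. The groups overlapped, with none of the 7 hippocampal arrays above the cortical median, and it fell by 0.41 (SE 0.14, 1.32-fold, adjusted p = 0.0202). The same covariate ended this call (-0.36, adjusted p = 0.0649). Its contralateral difference was -0.21. M27293_s_at stood at -0.23 and 0.30 on the 2 sides, not called.

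Pdgfb, the ligand that acts on pericytes, was called on Z14117cds_i_at on the ipsilateral side, at 0.64 (SE 0.18, 1.55-fold, adjusted p = 0.00498). Only 3 of 7 ipsilateral cortex arrays exceeded the floor, so the size depends on it: it was 0.53 to 1.64 under the alternatives. The brighter Pdgfb probe set L41623cds_s_at stood at -0.23 (adjusted p = 0.624) ipsilaterally and 0.44 contralaterally, not called. Igf2r stood at 0.68 (SE 0.32, adjusted p = 0.106) ipsilaterally and -0.65 (SE 0.29, adjusted p = 0.0759) contralaterally, opposite in sign and neither called. In the order of the 6 group means, neighbouring groups formed 90 pairs over the 18 probe sets. The ranges of 1 pair did not overlap, the step of Fgfr1 S54008_i_at from ipsilateral cortex at 24 h to contralateral hippocampus. The same count was not made over all tested probe sets, so 1 of 90 has no background and is a description only.

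Beside these region differences, markers of oligodendrocyte precursors (3 of 5 measured: Pdgfra, Cspg4 and Sox10) were higher in hippocampus for 3 of 3 contralaterally and 2 of 3 ipsilaterally. Their sums were 4627 to 5806 and 5010 to 6977 in ipsilateral and contralateral cortex at 4 h and 7905 to 9500 and 7430 to 9214 in hippocampus, with no overlap. Astrocyte markers were higher for 3 and lower for 1 of 8 contralaterally, and higher for 3 and lower for 2 ipsilaterally, with sums of 145258 to 171569 in ipsilateral and 155505 to 176081 in contralateral hippocampus. Mural cell and fibroblast markers were higher for 5 of 9 ipsilaterally and 2 of 9 contralaterally, with sums of 12406 to 22599 and 11977 to 17792 in hippocampus beside the cortical sums above. Oligodendrocyte markers (8 of 10 measured) were higher for 4 and lower for 1 ipsilaterally, and higher for 1 contralaterally. Their sums were 192805 to 265982 and 210762 to 269330 in ipsilateral and contralateral cortex at 4 h and 198436 to 286232 and 196352 to 253367 in hippocampus. Detection calls were not used for these markers, and Myh11 lay near the floor in contralateral hippocampus, with a mean of 7.99. Their part in the region differences was not tested.

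**Figure D3:**
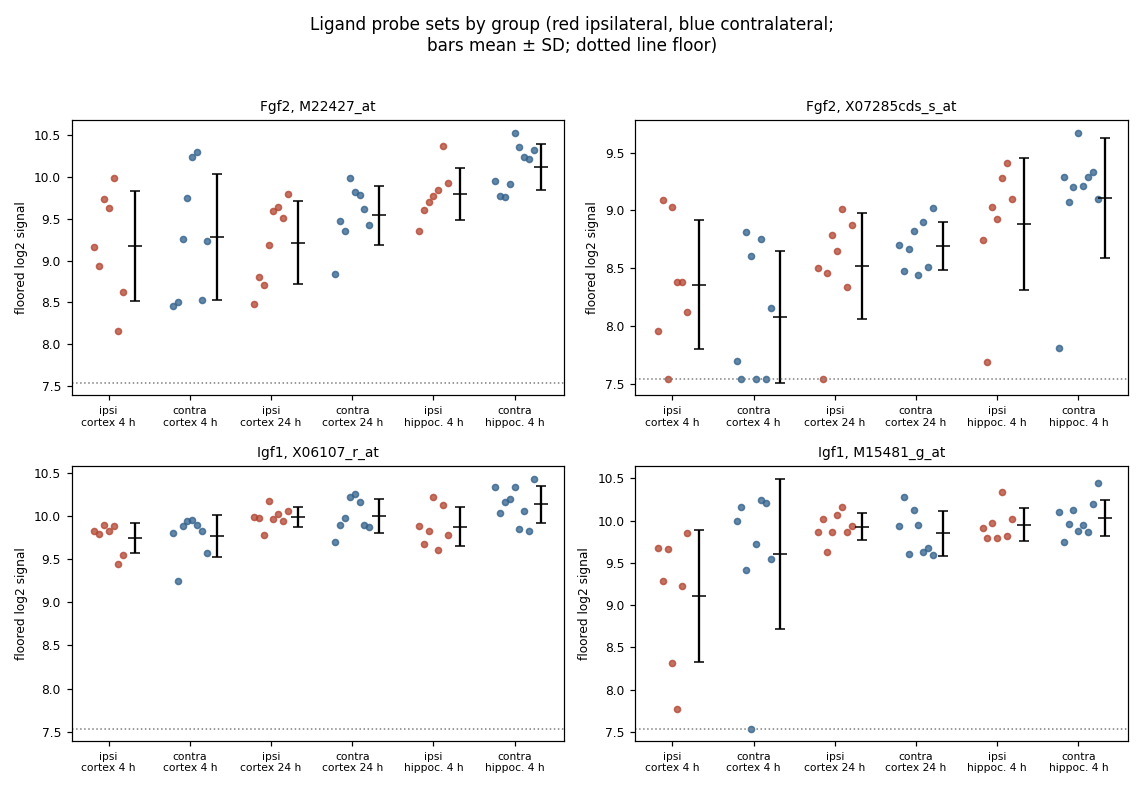
Floored log2 signal of each array (points, red ipsilateral and blue contralateral) by group for the ligand probe sets of Fgf2 and Igf1, with mean and SD beside the points and the floor as a dotted line. The Fgf2 means are highest in contralateral hippocampus, and M15481_g_at spreads downward in 4 h cortex.

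In hippocampus at 4 h the sides differed for 3 of the 18 probe sets, 2 higher and 1 lower on the injured side, which is 16.7% against a background of 16.1%. That share is the background's. The median difference of the 18 was -0.15, against -0.04 over all tested probe sets.

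Igf2r encodes the mannose-6-phosphate receptor. Its only probe set, U59809_s_at, gave 1027, 1728 and 2131 in ipsilateral hippocampus and 301, 895 and 1750 in contralateral hippocampus. All 7 ipsilateral arrays lay above the contralateral median, and the ranges overlapped because the contralateral arrays spread widely. The difference was 1.09 (SE 0.30, 2.13-fold, adjusted p = 0.011, exact two-sided permutation p = 0.0097). In cortex at 4 h the sides gave 268, 1352 and 1682 against 698, 1266 and 1914, a difference of -0.24 (SE 0.31).

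Pdgfb probe set Z14117cds_i_at gave 247, 376 and 513 in ipsilateral and 43.7, 113 and 270 in contralateral hippocampus. All 7 ipsilateral arrays and 1 of 9 contralateral arrays exceeded the floor. The difference was 0.93 (SE 0.17, 1.90-fold, adjusted p = 0.000412, exact two-sided permutation p = 0.000175) and ran from 0.78 to 1.85 under the alternatives. The brighter Pdgfb probe set L41623cds_s_at pointed the other way, at -0.49 (SE 0.28, adjusted p = 0.224), with 258, 606 and 816 against 317, 665 and 1179. The probe sets of Pdgfb therefore disagreed, and across the 47 arrays they correlated at r = 0.07.

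Igf1r probe set M27293_s_at gave 426, 615 and 801 in ipsilateral and 626, 957 and 1238 in contralateral hippocampus. None of the 7 ipsilateral arrays lay above the contralateral median, and the ranges overlapped. It fell by 0.64 (SE 0.21, 1.56-fold, adjusted p = 0.0281, exact two-sided permutation p = 0.00315). Leaving out any 1 of 5 arrays (18, 20, 21, 27 or 32) ended the call (-0.59 to -0.57), as did quantile normalization (-0.49, adjusted p = 0.0566). The leading Igf1r probe set L29232_at stood at -0.10 (SE 0.13, adjusted p = 0.616).

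The dimmest signals differed between these groups. The 10th percentile of signal on an array was 44 ± 6.85 (SD, n = 7) in ipsilateral and 64.8 ± 16.1 (SD, n = 9) in contralateral hippocampus, a log2 difference of -0.54 (exact two-sided permutation p = 0.00253, Benjamini-Hochberg adjusted over 7 comparisons 0.0177). With that percentile as a covariate, limma called 0 of the 18 members (1 at an unadjusted p under 0.05) and 5 of all 7503 probe sets between the hippocampal sides. Igf2r then stood at 0.42 (SE 0.30, adjusted p = 0.684), Pdgfb at 0.78 (SE 0.19, adjusted p = 0.0828) and Igf1r at -0.15 (SE 0.20, adjusted p = 0.856).

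The side differences in hippocampus and cortex at 4 h were compared directly. Limma called 0 of the 18 members for this difference of differences, against a background of 4.18%, and 2 members and 1585 of all probe sets had an unadjusted p under 0.05. Igf2r gave 1.33 (SE 0.43, adjusted p = 0.0631), Pdgfb on Z14117cds_i_at 0.58 (SE 0.24, adjusted p = 0.15) and Igf1r on M27293_s_at -0.53 (SE 0.30, adjusted p = 0.301). A hippocampal difference without a cortical one is thus not shown for any of them.

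**Figure D4:**
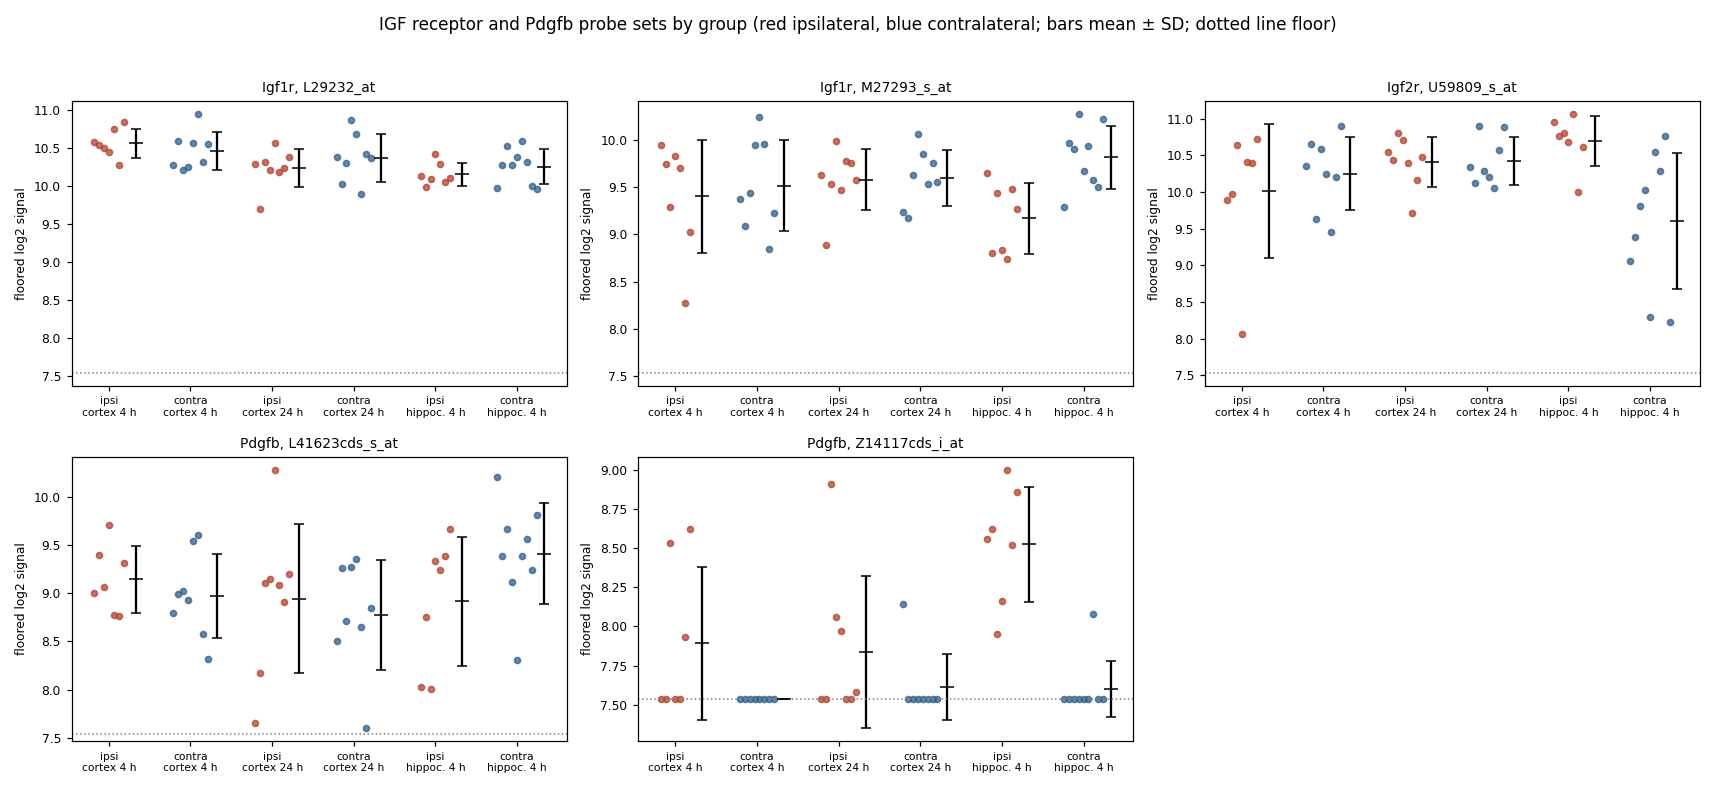
Floored log2 signal of each array (points, red ipsilateral and blue contralateral) by group for the probe sets of Igf1r, Igf2r and Pdgfb, with mean and SD beside the points and the floor as a dotted line. Igf2r and the Pdgfb probe set Z14117cds_i_at are higher in ipsilateral than in contralateral hippocampus, and the other Pdgfb probe set is not.

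**Figure D5:**
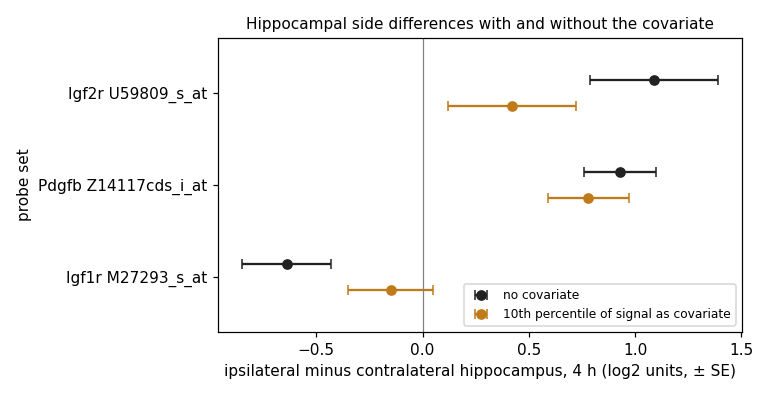
Ipsilateral minus contralateral hippocampus at 4 h in log2 units (points, with SE as bars) for the 3 called probe sets, without a covariate (black) and with the 10th percentile of each array's signal as one (orange). Igf2r moves from 1.09 to 0.42, Pdgfb from 0.93 to 0.78 and Igf1r from -0.64 to -0.15.

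The wider pathway was described through 4 lists of FGF, IGF, PDGF and VEGF family genes and of the receptor tyrosine kinase relay, without the members: 83 of 136 listed genes were measured, each by its brightest probe set. Limma called 0 of the 83 between the cortical sides, with 5 at 4 h and 4 at 24 h at an unadjusted p under 0.05. With time, 13 were higher and 4 lower in ipsilateral cortex (20.5%, against 19.3% of all tested probe sets), and 21 higher and 6 lower in contralateral cortex (32.5%, against 21.5%). In hippocampus against cortex, 27 were higher and 10 lower contralaterally (44.6%, against 33.7%), and 18 higher and 8 lower ipsilaterally (31.3%, against 27.5%). Between the hippocampal sides 2 were higher and 13 lower (18.1%, against 16.1%, where 399 probe sets were higher and 808 lower), and with the 10th-percentile covariate limma called 0, with 8 at an unadjusted p under 0.05.

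Stat3, a transcription factor downstream of these receptors, rose with time in cortex by 1.18 (SE 0.27, adjusted p = 0.00107) ipsilaterally and 0.81 (SE 0.26, adjusted p = 0.0182) contralaterally. In ipsilateral cortex Fgf14, an intracellular FGF homologue that binds sodium channels, rose by 0.91, Pik3cb, a catalytic PI3 kinase subunit, by 0.84 and Sdc2, a heparan sulfate proteoglycan, by 0.67. In contralateral cortex Kitlg, the ligand of Kit, rose by 0.94 from a 4 h mean of 7.86, also near the floor. Pik3r3, a regulatory PI3 kinase subunit, rose in contralateral cortex by 0.79. Ins1 (0.74 there) is near-identical to Ins2, so its probe set is uncertain.

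Kit, a receptor kinase related to the PDGF receptors, was higher in hippocampus by 1.93 (SE 0.15, adjusted p = 8.56e-15) contralaterally and 2.29 (SE 0.16, adjusted p = 1.11e-15) ipsilaterally. Nrp1, a co-receptor for VEGF, was higher by 1.32 contralaterally and was called higher ipsilaterally too (adjusted p = 6.01e-15). Sdc2 was higher by 0.97 ipsilaterally and by 0.75 contralaterally (adjusted p = 0.000478). Dusp1, a MAP kinase phosphatase, fell by 1.56 contralaterally and also fell ipsilaterally (adjusted p = 0.000158). Egr1, an immediate early transcription factor, fell by 1.51 contralaterally and stood at -0.88 ipsilaterally (adjusted p = 4.18e-05). Fgfr1 and Fgfr2 thus were not alone among receptors of these lists in being higher in hippocampus.

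Between the hippocampal sides Pdgfrb, the receptor of PDGF-B, fell by 0.88 (SE 0.30, adjusted p = 0.0398), opposite in sign to Pdgfb probe set Z14117cds_i_at. The brighter Pdgfb probe set L41623cds_s_at had the same sign as Pdgfrb, at -0.49, and was not called. Igfals, a carrier of circulating IGF, fell by 0.87, Nf1, a brake on Ras, by 0.78, and Flt1, a VEGF receptor, by 0.76. For the difference of differences 4 of the 83 were called, all lower (4.82%, against 4.18% of all tested, of which 81 were higher and 233 lower): Ins1 at -1.15, Igfals at -1.05, Fgfr4 at -1.03 and Insrr at -0.98. None of these hippocampal calls remained with the 10th-percentile covariate.

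Other genes whose floored log2 signal ran most like a member's over the 47 arrays are given as a description, since all points share the 6 groups. For Fgfr1 they were Gria1 and Bok (both r = 0.91) and Wipf3 (0.90), and once group means were taken out r was 0.21 to 0.37. For Fgfr2 they were Aqp4 and Ireb2 (both 0.82) and Syt11 (0.81), with 0.41 to 0.56 within groups. For Fgf2 they were A2m (0.79), Mchr1 and Sult5a1 (both 0.77), and within groups r stayed at 0.72 to 0.77.

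For Igf1 the closest were Flot1 and Rps15 (both 0.81) and Helz (0.79), and within groups r stayed at 0.71 to 0.75. For Igf1r they were Syt10 (0.64), Slc7a5 (0.61) and Huwe1 (0.59), with 0.51 to 0.64 within groups. For Igf2r they were Adprh (0.69), Hspa4 (0.67) and Ndufs4 (0.66), with 0.55 to 0.63 within groups. Pdgfb had the weakest neighbours, Timm44 (0.53), Zfp36 (0.52) and Kynu (0.51), with 0.44 to 0.5 within groups. Probe sets of one gene were compared in the same way: the brighter Fgfr1 probe sets gave r = 0.83 over the arrays and -0.03 within groups. Fgfr1 pairs with the dimmer AF000144_at gave 0.17 and 0.05 over the arrays. Fgfr2 pairs ran from 0.04 to 0.73 over the arrays and from -0.28 to 0.21 within groups, highest for Z35138cds_s_at and L19112_at. Over the arrays the Fgf2 pair gave 0.52 and the Igf1r pair 0.25, and Igf1 pairs lay between -0.16 and 0.29. The Igf1 probe set D00698_s_at exceeded the floor on 5 of 47 arrays and was not tested.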

How the data were processed

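Per the labels, total RNA was extracted with Trizol from rat cortex and hippocampus. The deposited table holds one linear intensity per probe set and array; how the authors summarised and scaled it is not given in the sources used here. Trimmed means (2% off each end) were 2503 to 2504 on all 47 arrays, so the deposited scaling was kept. Array medians were 615 to 879, and arrays of a group correlated at 0.944 to 0.985. Values under 185.8 were raised to it, which shrinks folds against dim groups; probe sets above it on at least 7 arrays were tested, without 59 control probe sets. Of all probe sets 7018 name 1 gene, 308 several and 1473 none; names came from the platform annotation, and RefSeq held the gene ID of 6104 among 6122 tested single-gene probe sets.

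Tests used R 4.3.3 with limma 3.58.1 (6 group means, 41 residual degrees of freedom, eBayes with trend) and the data.table package (1.17.8), all two-sided, in 9 comparisons, after a check on simulated data. The 18 tested member probe sets were all named; pathway genes outside the members were named where called, at most 4 per comparison. Members and lists were chosen with earlier results of these data known. Alternatives were the floor, log2(signal + 100), the filter, quantile normalization, array weights, the 10th percentile as covariate, only the groups compared, exact permutation and leaving out each array. The number of arrays limits the precision.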

Additional observations from a re-analysis of the deposited data

Results flagged for a closer look

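In 17 of 108 groups of arrays (18 probe sets in 6 groups) 1 array lay far from the others of its group. Chance would give about 5.4 for values without a floor. Where all other arrays sat at the floor, any array above it was flagged, so 17 cannot be judged against 5.4. This was so for Igf1 X06107_i_at on arrays 8 and 43 and for Pdgfb Z14117cds_i_at on arrays 41 and 30. Values are floored log2 signals, and 7.54 is the floor.

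Among the FGF receptors, Fgfr1 D12498_s_at was 12.29 on array 47 of contralateral cortex at 24 h, where the others lay between 11.66 and 11.92. Fgfr1 S54008_i_at was 11.68 on array 32 of contralateral hippocampus, below 12.22 to 12.71 on the others. Fgfr2 L19107_s_at was 7.54 on array 22 of ipsilateral hippocampus, against 8.66 to 9.29.

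The Fgf2 probe set X07285cds_s_at had a low array in 3 groups: 7.54 on array 34 of ipsilateral cortex at 24 h (others 8.34 to 9.01), 7.69 on array 18 of ipsilateral hippocampus (8.74 to 9.41) and 7.81 on array 23 of contralateral hippocampus (9.07 to 9.67). Array 23 carries a sample number from the run of the other side and was kept as labelled.

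For Igf1, M15481_g_at was 7.54 on array 12 of contralateral cortex at 4 h (others 9.42 to 10.24) and 10.34 on array 21 of ipsilateral hippocampus (9.79 to 10.02). X06107_i_at, mostly under the floor, was 8.48 on array 8 of ipsilateral cortex at 4 h, 8.65 on array 37 of ipsilateral cortex at 24 h and 8.15 on array 43 of contralateral cortex at 24 h.

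Igf1r L29232_at was 9.70 on array 34 of ipsilateral cortex at 24 h, against 10.19 to 10.57. Igf2r was 8.06 on array 5 of ipsilateral cortex at 4 h (others 9.89 to 10.72) and 10 on array 22 of ipsilateral hippocampus (10.61 to 11.06). Pdgfb Z14117cds_i_at stood above the rest on array 35 of ipsilateral cortex at 24 h (8.91), array 41 of contralateral cortex at 24 h (8.14) and array 30 of contralateral hippocampus (8.08).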

How the results depend on the processing

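Of the 27 calls on members, 20 were kept under all 7 limma alternatives, 23 on leaving out any array and 19 under both, and no called difference changed sign. Between the hippocampal sides the count of members called went from 3 to 0 with the 10th-percentile covariate, and the exact permutation test (unadjusted p under 0.05) gave 7. With time in ipsilateral cortex it gave 7, against 4 adjusted limma calls. In these 2 comparisons 4 and 7 members, and 2366 and 2331 of all 7503 probe sets, had an unadjusted limma p under 0.05. The permutation test was not run on all probe sets, so its counts have no background and are unlike the counts of adjusted calls. For the hippocampal minus the cortical side difference the count went from 0 to 1 with array weights (Igf2r at 1.32, adjusted p = 0.0417), and was 0 to 1 over leaving out each array: it was 1 without array 7, 8, 14, 22, 29, 30 or 31. Over all probe sets, the covariate took the calls between hippocampal sides from 1207 to 5 and those for the difference of differences from 314 to 1, which was 64 with only the groups compared. Array weights gave 1881 between hippocampal sides and 38 for the sides of cortex at 24 h, against 8; there the covariate gave 13, and no filter or only the groups compared gave 0. Quantile normalization moved the share of higher calls from 33.1% to 45.9% between hippocampal sides, from 61.6% to 51.2% with time in contralateral cortex, from 66.2% to 49.7% between contralateral regions and from 25.8% to 36.3% for the difference of differences. Under it the median difference of all probe sets between contralateral regions went from 0.11 to 0.01. No paired analysis was possible because each sample number occurs once. No detection calls were used, so values near the floor have no order.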

Other observations

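Under alternative settings some members not called in the text were. With quantile normalization the leading Igf1r probe set L29232_at was lower at 24 h than at 4 h in ipsilateral cortex (-0.42, limma adjusted p = 0.0173) and lower in contralateral hippocampus than in contralateral cortex (-0.42, adjusted p = 0.00645), and Igf2r was lower in contralateral hippocampus than in cortex (-0.88, adjusted p = 0.0294). With the 10th-percentile covariate the Fgf2 probe set M22427_at was higher in ipsilateral hippocampus than in cortex (1.07, adjusted p = 0.000256), and the Igf1 probe set X06107_r_at was higher at 24 h than at 4 h in ipsilateral (0.37, adjusted p = 0.00378) and contralateral cortex (0.30, adjusted p = 0.011). These values are given as a description of how the calls move with the setting.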
